A study of Mus musculus with 18 samples.

Results

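The perilipins, the CIDE proteins and the FITM proteins build and coat the lipid droplet, and their 10 mouse genes were followed here through fat and liver: Plin1, Plin2, Plin3, Plin4, Plin5, Cidea, Cideb, Cidec, Fitm1 and Fitm2. They were chosen by gene symbol, matched to the Ensembl identifiers of the table, and all 10 were among its 23474 identifiers. The table covers epididymal adipose tissue and liver of male C57BL/6J mice aged 17 weeks that had been fed for 12 weeks on 1 of 3 diets. ND mice ate a normal diet, HFD mice ate a high-fat diet, and GT mice ate that same high-fat diet plus an ethanol extract of green tea, at 0.25% by weight. There were 3 libraries for every diet in either tissue, 18 in all. Whether the 3 libraries of a group are 3 mice is not stated, so the p-values describe how far these libraries differ, part of which may be technical.

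A lipid droplet is a core of triglyceride and cholesterol ester under a single layer of phospholipid. Perilipins sit on that layer and set how readily lipases reach the core, and Plin1 does so in fat cells by holding back Abhd5, the activator of the lipase Pnpla2, until adrenergic signals release it. CIDE proteins gather where droplets touch and pass lipid from the smaller to the larger droplet, which in white fat favours one large droplet, and FITM proteins act in the endoplasmic reticulum where droplets bud. In a fatty liver, genes typical of the fat cell droplet are known to come on in hepatocytes, and Plin2 protein is stable only when bound to lipid.

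Promoter sequences are shown for 4 members whose levels the results turn on: Plin1 and Cidec, which moved together in fat, Plin2, which moved the other way there, and Plin5. Plin5 differed with the extract in liver and, only with library ND 1 left out, in fat, and both calls were lost under several alternatives. The sequences come from RefSeq promoter windows of GRCm38.p6, from 250 bases before to 50 bases after the annotated start, in which 9 members were found, with 11 windows. Only the stretch ahead of any annotated exon is printed, 5′ to 3′ on the gene's own strand, which is the minus strand for all 4, and capitals mark a match to a searched motif. The stretches lie at chr7:79732905-79733026 for Plin1, chr6:113435761-113436010 for Cidec, chr4:86670218-86670309 for Plin2 and chr17:56117607-56117798 for Plin5.
Plin1: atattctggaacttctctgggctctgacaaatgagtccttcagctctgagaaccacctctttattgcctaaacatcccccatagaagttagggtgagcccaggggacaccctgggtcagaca
Cidec: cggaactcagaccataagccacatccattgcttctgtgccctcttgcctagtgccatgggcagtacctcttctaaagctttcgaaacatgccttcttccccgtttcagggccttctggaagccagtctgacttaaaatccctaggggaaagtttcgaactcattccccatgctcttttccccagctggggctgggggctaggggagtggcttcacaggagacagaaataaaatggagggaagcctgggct
Plin2: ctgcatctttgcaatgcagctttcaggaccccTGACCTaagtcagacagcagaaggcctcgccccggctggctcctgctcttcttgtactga
Plin5: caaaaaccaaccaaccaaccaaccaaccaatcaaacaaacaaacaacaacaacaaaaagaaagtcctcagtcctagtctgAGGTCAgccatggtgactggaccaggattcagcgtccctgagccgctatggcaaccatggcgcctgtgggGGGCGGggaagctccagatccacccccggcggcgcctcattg
The motifs searched on both strands were the nuclear receptor hexamer AGGTCA, its direct repeat as bound by PPAR and RXR pairs (AGGTCA, any 1 base, AGGTCA), the E-box CACGTG, the TATA box TATAAA and the GC box GGGCGG. Each match to the direct repeat also holds the hexamer. The hexamer was in the Plin2 window, on the other strand from base -218, and in both Plin5 windows, from base -170 and from base 14, while 16.3% of all 32851 windows of 300 bases held it. In the printed Plin2 stretch it reads as TGACCT, and in that of Plin5 it is followed by a GC box. No member window held the direct repeat, which was in 0.0396% of all windows. The E-box was in 1 member window (Plin2, from base -4), as in 7.15% of all windows, and the GC box in 6 of 11, as in 35.7%. The TATA box was in the window of Cideb alone among the members, as in 13.6% of all windows. These are matches of letters in short windows and say nothing of binding.

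Values are FPKM (fragments mapped to a gene, scaled for transcript length and library size), a level per length, as the authors deposited them. Changes are differences of log2(FPKM + 1) with their SE from limma, and adjusted p is Benjamini-Hochberg over all genes of a comparison, with 0.05 as threshold. A gene was tested in a tissue where at least 3 libraries reached 1 FPKM, which left out Fitm1 in fat and Plin1 in liver. In 8 adipose libraries the FPKM summed to 527904 to 608819, and in liver to 680168 to 930139. Adipose ND 1 stood apart, with a total of 1002765 and 98971 FPKM in 8 testis markers, against 15.8 to 2980 in the other adipose libraries, and with 20327 FPKM in 6 epididymis markers. Its 7 adipocyte markers summed to 6994 FPKM, against 14962 to 32611 in the others. Results in fat are therefore given with and without it. The labelled tissues carried their markers, since each of 7 adipocyte markers reached 1 FPKM in every adipose library and each of 6 hepatocyte markers in every liver library but HFD 3, where Alb was listed at 0.

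In ND 1 itself, 7 members lay below ND 2 and ND 3. Cidec stood at 182 FPKM there, against 2802 and 3144 in ND 2 and ND 3, and Plin4 at 62.8 against 862 and 1511. Plin1 was at 59.1 FPKM against 682 and 706, and Fitm2 at 6.46 against 62.6 and 69.0. Plin2 (58.8 against 233 and 275 FPKM), Plin3 (18.2 against 27.2 and 29.6) and Plin5 (3.86 against 10.2 and 18.4) were lower there too. Fitm1, by contrast, was listed at 16.0 FPKM in ND 1 and at most at 0.482 in the other 8 adipose libraries, and Cidea was at 13.6 in ND 1 and at most at 3.82 in the others.

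The members divided between the tissues. Over the 3 diets, 8 of 10 members differed between the tissues with all 18 libraries (limma, adjusted p under 0.05), where 80.3% of genes did, and 8 of 10 without ND 1, where 88.2% did, so the count itself is no higher than over all genes. Plin1, Plin3, Plin4, Cidec and Fitm2 were higher in fat, and Plin5, Cideb and Fitm1 were higher in liver. Without ND 1 the difference in log2(FPKM + 1), fat minus liver, was 5.44 ± 0.23 for Plin4 and 5.56 ± 0.24 for Cidec. It was -6.72 ± 0.28 for Cideb, the CIDE gene known for its part in lipoprotein export from hepatocytes, and -1.64 ± 0.14 for Plin5, which ties droplets to mitochondria in oxidative tissue. The adjusted p of these 4 lay between 6.47e-12 and 1.36e-08. Plin1 was listed at 0 in 7 of 9 liver libraries and Fitm1 was near 0 in fat, so the size of their difference follows the value added: with 1 added it was 8.999 for Plin1 and -5.37 for Fitm1, and with 0.1 added 12.07 and -7.69. Fitm2 differed by 1.23 ± 0.13 (adjusted p 2.76e-07), but with ND 1 by 0.88 ± 0.35 (adjusted p 0.0318), a call that was lost without any one of 6 libraries (highest adjusted p 0.0660). Plin2 did not pass, with 0.20 ± 0.21 (adjusted p 0.360), nor did Cidea, with -0.37 ± 0.30 (adjusted p 0.248). At equal FPKM totals Plin2 did pass without ND 1 (adjusted p 0.0130).

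The order of levels shows the same division. In HFD fat, where no neighbours overlapped apart from Cidea and Cideb, mean FPKM ran from Cidec (1619 ± 133, SD, n = 3) through Plin2 (1224 ± 162), Plin4 (382 ± 41.3) and Plin1 (333 ± 16.2) to Plin3 (52.4 ± 4.23), Fitm2 (36.7 ± 0.408) and Plin5 (6.24 ± 0.341). Cidea (2.41 ± 1.47), Cideb (1.36 ± 0.406) and Fitm1 (0.0992 ± 0.0865) closed the order. On the normal diet, in the 2 libraries ND 2 and ND 3, Plin4 (1187 ± 459) and Plin1 (694 ± 17.0) stood ahead of Plin2 (254 ± 29.9), without overlap. In ND liver Plin2 led (742 ± 228 FPKM), ahead of Cideb (215 ± 11.5), with no overlap between them. Plin5, Cidec, Fitm2 and Fitm1 followed, each overlapping the next, and Plin3 (12.2 ± 0.893), Plin4 (4.91 ± 2.28), Cidea and Plin1 came last. In HFD liver Cidec (88.0 ± 23.9) and Fitm1 (76.8 ± 12.4), whose libraries overlapped, took the places after Cideb (335 ± 44.9).

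**Figure D1:**
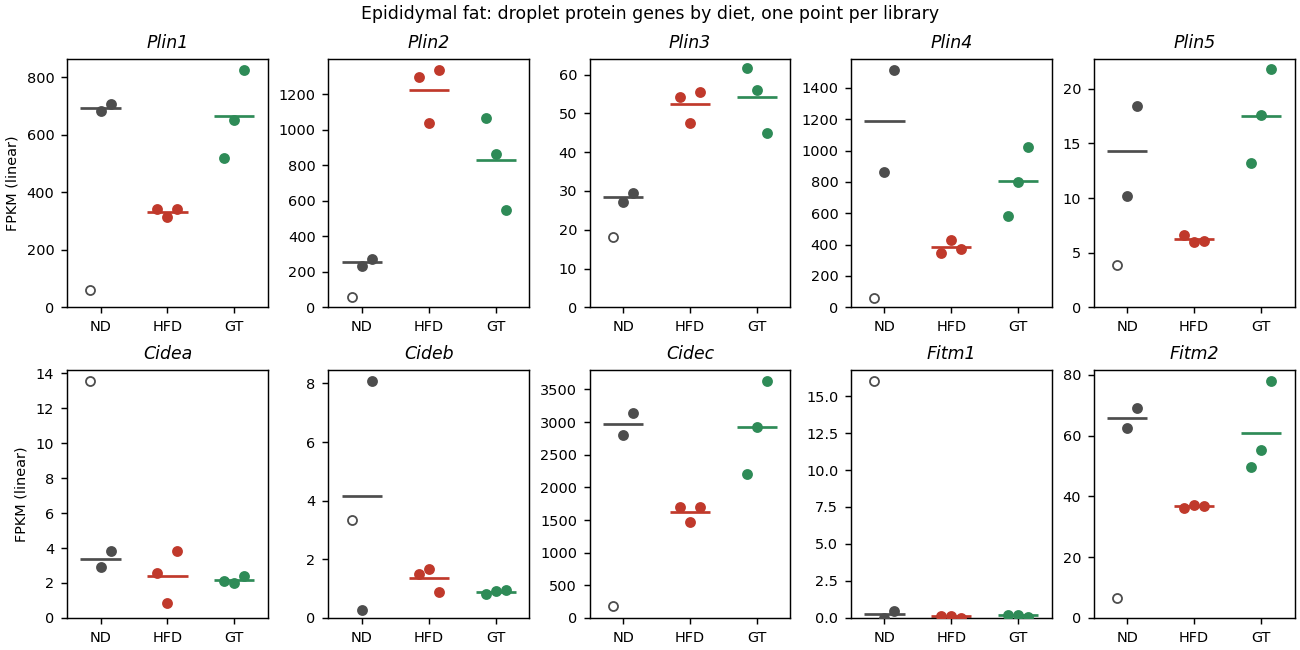
FPKM of the 10 members in epididymal fat (linear axes from 0, 1 panel per gene), 1 point per library, with the open point for ND 1 and bars for the mean of each diet without it. Plin2 and Plin3 sit higher in HFD than in ND, and Plin1, Plin4, Plin5, Cidec and Fitm2 sit lower in HFD than in ND 2, ND 3 and all GT libraries.

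The high-fat diet was compared with the normal diet in fat first with all 9 adipose libraries. There Plin2 rose, by 2.96 ± 0.59 on the log2 scale (adjusted p 0.0261), and was 1 of 9 members tested to pass, where 5.65% of genes passed and 5.28% did so upward. Plin3 changed by 1.06 ± 0.26 (adjusted p 0.0531) and passed without ND 2 or ND 3 (0.0379 and 0.0456). The call of Plin2 was lost without any one HFD library or without GT 2 (adjusted p 0.0616 to 0.126), although its change stayed between 2.26 and 3.36. Left without ND 1, the fit called 7 of 9 members, where 27.4% of genes passed. Plin2 and Plin3 rose, as did 17.8% of genes, and Plin1, Plin4, Plin5, Cidec and Fitm2 fell, as did 9.62%. The median change of the 9 members was -0.82, against 0.02 over all 12859 genes tested. The same 7 members had no overlap between HFD and the remaining ND libraries, which held for 50.2% of genes. All genes split into 2290 higher and 1237 lower. The values that follow are from this fit.

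Plin2, the perilipin that coats droplets in most cell types, stood at 233 and 275 FPKM in ND 2 and ND 3, and at 1299, 1038 and 1336 in the HFD libraries. Every HFD library lay far above the ND libraries. The change was 2.26 ± 0.27 (limma, adjusted p 0.00134). Plin3, a perilipin that moves from the cytosol onto young droplets, was at 27.2 and 29.6 FPKM in ND and at 54.2, 47.5 and 55.4 in HFD, again without overlap. Its change was 0.86 ± 0.16 (adjusted p 0.00538).

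Plin1, the main coat protein of the fat cell droplet, fell from 682 and 706 FPKM to 343, 314 and 341. The HFD libraries lay close together and below both ND libraries, and the change was -1.06 ± 0.19 (adjusted p 0.00554). Plin4, which covers small droplets in fat cells, stood at 862 and 1511 FPKM in ND, which differed widely, and at 346, 427 and 375 in HFD. All 3 HFD libraries were below the lower ND library, with a change of -1.58 ± 0.29 (adjusted p 0.00585). Plin5 went from 10.2 and 18.4 FPKM to 6.63, 6.00 and 6.10, also without overlap. Its change was -1.02 ± 0.26 (adjusted p 0.0230).

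Cidec, the CIDE gene of white fat (also called Fsp27), stood at 2802 and 3144 FPKM in ND and at 1693, 1465 and 1698 in HFD. The groups did not overlap, and the change was -0.88 ± 0.22 (adjusted p 0.0206). Fitm2, the more widely expressed FITM gene, was at 62.6 and 69.0 FPKM in ND and at 36.3, 37.1 and 36.8 in HFD, where the libraries were nearly equal. It fell by 0.82 on the log2 scale, with an SE of 0.18 (adjusted p 0.0130). The calls of Plin5 and Cidec were lost without ND 3, HFD 2 or HFD 3 (adjusted p 0.0619 to 0.0898 for Plin5 and 0.0569 to 0.0656 for Cidec), and that of Plin5 with no filter (0.0506). Without ND 3 and HFD 1 as well, whose testis markers summed to 2980 and 2061 FPKM, the calls of Plin5, Cidec and Fitm2 were lost (adjusted p 0.110, 0.0887 and 0.0742), and those of the other 4 were kept.

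Cidea, known as the CIDE gene of brown fat, was at 2.92 and 3.82 FPKM in ND and 2.55, 0.878 and 3.81 in HFD, with overlap and a change of -0.45 ± 0.35 (adjusted p 0.379). Of 6 brown adipocyte markers, Ucp1 was at most at 5.05 FPKM in any adipose library, while Cox8b ran from 10.4 to 40.1 and Cox7a1 from 8.35 to 34.7. Of the 3 tested without ND 1, Cox7a1 and Cox8b did not pass with HFD in limma (adjusted p 0.136 and 0.790). Elovl3 did (1.15 ± 0.26, 0.0138), but it stood near 0, at 0 and 0.0354 FPKM in ND 2 and ND 3. In HFD it was at 0.844, 1.27 and 1.75 FPKM. It was tested only because HFD and GT libraries reached 1 FPKM, so its p lends no weight to a rise over ND. Cideb was at 0.271 and 8.08 FPKM in ND and between 0.901 and 1.68 in HFD. The ND libraries lay on either side of the HFD libraries, and the change of -0.54 ± 0.71 did not pass (adjusted p 0.604). Without ND 2, which held the low value, it was -1.96, with ND 3 as the only ND library left, so that 1 ND library decides it. Fitm1, the FITM gene known from muscle, was listed at 0 to 0.482 FPKM in all adipose libraries but ND 1.

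Markers of cell types moved with these changes. The 6 macrophage markers (Adgre1, Cd68, Lyz2, Csf1r, Trem2 and Gpnmb) summed to 62.2 to 516 FPKM in ND fat, 3591 to 5059 in HFD fat and 1321 to 3242 in GT fat, and all 6 rose with HFD without ND 1. The 7 adipocyte markers summed to 32611 and 20468 FPKM in ND 2 and ND 3, to 14962 to 17535 in HFD fat and to 21956 to 24205 in GT fat, and 5 of them fell and 1, Lep, rose with HFD without ND 1. Over all genes of that fit 17.8% rose and 9.62% fell. With all 9 adipose libraries the 6 macrophage markers passed upward and 1 of the 7 adipocyte markers downward, where 5.65% of genes passed. Fabp4, most of the adipocyte sum outside ND 1, did not pass without ND 1. It stood at 23308 and 13012 FPKM in ND 2 and ND 3 and at 14495, 13621 and 12038 in HFD. Adipoq stood at 2781 and 1826 FPKM in ND 2 and ND 3 and at 1027, 1037 and 908 in HFD. In libraries of whole tissue, fewer cells of a type and less RNA per cell cannot be told apart. The part of these cell types in the changes of the members was not tested.

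**Figure D2:**
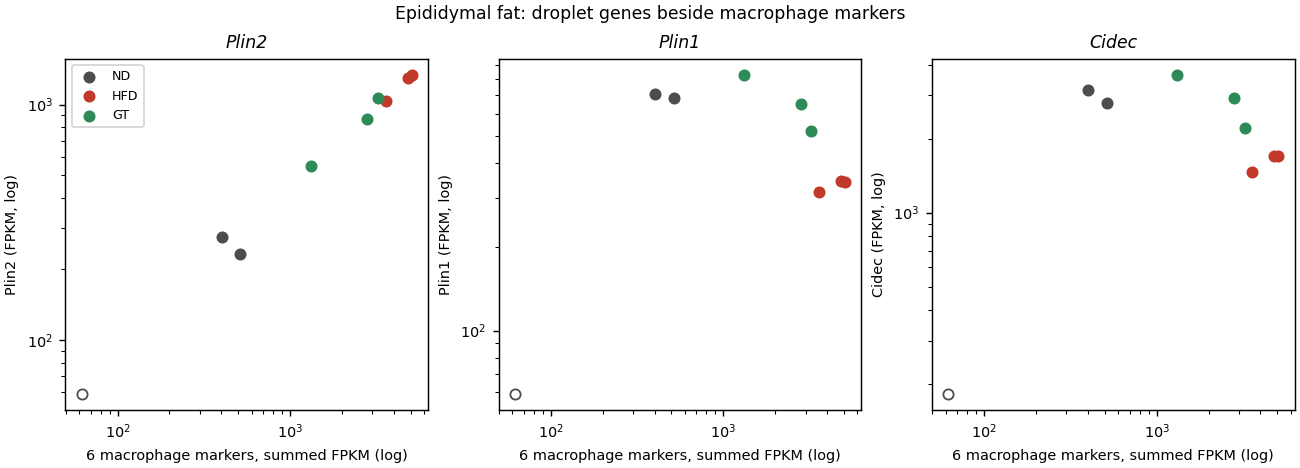
FPKM of Plin2, Plin1 and Cidec (log axis) against the summed FPKM of 6 macrophage markers (log axis) in the 9 adipose libraries, coloured by diet, with ND 1 as the open point. Plin2 is highest where the marker sum is highest, in HFD 3 with 1336 and 5059 FPKM, and among GT libraries both are lowest in GT 3, with 551 and 1321 FPKM.

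The extract was then compared with the high-fat diet alone in fat. With all 9 libraries, 0 of 9 members passed in limma, as did 0% of genes, and 1 member (Plin5) and 467 of all genes had an unadjusted p under 0.05. The values of ND 1 enter this comparison only through the estimated spread and the choice of genes tested. Without that library, 2 of 9 members passed, both upward, where 1.7% of genes passed and 0.894% did so upward. These 2 were Plin1 and Plin5. In 5 members (Plin1, Plin4, Plin5, Cidec and Fitm2) every GT library lay above every HFD library, as in 12.4% of genes. The median change of the 9 members was 0.69, against -0.12 over all genes tested. These HFD libraries are the same as in the comparison with ND, so the 2 sets of changes are not independent.

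Plin1 stood at 519, 652 and 825 FPKM in GT, each above the 314 to 343 of HFD, and rose by 0.97 ± 0.17 (adjusted p 0.0463). Plin5 was at 13.2, 17.6 and 21.8 FPKM in GT and near 6 in HFD, without overlap. It rose by 1.33 ± 0.24 (adjusted p 0.0463). Both calls were lost without any one HFD library, without GT 2 and without GT 3 (adjusted p 0.108 to 0.231), with no filter on low values (0.102 for Plin1 and 0.105 for Plin5) and at equal FPKM totals (0.0535 and 0.0597). Without the libraries with testis transcripts Plin1 did not pass (0.0586) and Plin5 did.

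Plin4 stood at 585, 800.3 and 1023 FPKM in GT and Cidec at 2204, 2917 and 3630.4. Fitm2 was at 49.7, 55.3 and 78.2 FPKM. In each of the 3 genes GT 3 was the highest library and GT 1 the lowest, as in Plin1 and Plin5. Their changes against HFD were 1.04 ± 0.26, 0.82 ± 0.20 and 0.69 ± 0.16, and none passed (adjusted p 0.0807, 0.0743 and 0.0738). Plin4 passed without ND 2 or ND 3 (adjusted p 0.0386 and 0.0356), Cidec without ND 2, ND 3 or GT 1 (0.0451 to 0.0487) and Fitm2 without ND 3 or GT 1 (0.0485 in both).

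Plin2 ran the other way among the extract libraries, with 1068, 867 and 551 FPKM in GT 1, GT 2 and GT 3. GT 1 overlapped the HFD range, and the change of -0.61 ± 0.24 did not pass (adjusted p 0.191). Plin3 stood at 61.8, 56.1 and 45.1 FPKM, around the HFD values, with a change of 0.04 ± 0.14 (adjusted p 0.878). Cidea lay between 1.97 and 2.42 FPKM and Cideb between 0.813 and 0.950 in GT, with changes of -0.01 ± 0.32 and -0.30 ± 0.63. In the fit without ND 1, none of the 6 macrophage markers passed between GT and HFD in limma (adjusted p 0.0960 to 0.214). All 6 were lower in GT there with an unadjusted p under 0.05, and Cfd and Lipe of the 7 adipocyte markers passed, both upward. With all 9 libraries 0 of either list passed, as did 0% of genes. An unadjusted p under 0.05 was then left for 2 macrophage markers (Cd68 and Gpnmb) and 3 adipocyte markers (Cfd, Lipe and Retn).

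Against the normal diet, extract-fed fat kept higher Plin2 and Plin3. With all 9 libraries 0 of 9 members passed in limma, where 0.639% of genes did, with an unadjusted p under 0.05 for both of these genes. Without ND 1, 2 of 9 passed, both upward, where 10.7% of genes did and 7.5% did so upward. Plin2 was higher in GT by 1.66 ± 0.27 (adjusted p 0.0117) and Plin3 by 0.90 ± 0.16 (adjusted p 0.0132), each with every GT library above ND 2 and ND 3. Both calls were lost without GT 2 (adjusted p 0.0582 and 0.0666). For Plin1 the change was -0.09 ± 0.19 (adjusted p 0.790), for Cidec -0.05 ± 0.22 (0.884), for Fitm2 -0.13 ± 0.18 (0.659), for Plin5 0.31 ± 0.26 (0.464) and for Plin4 -0.54 ± 0.29 (0.249). Their GT libraries overlapped ND 2 and ND 3, and with 2 ND libraries these values do not show that the levels are equal. Cideb changed by -0.85 ± 0.71 (adjusted p 0.454), and by -2.26 without ND 2, which left ND 3 as the only ND library.

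**Figure D3:**
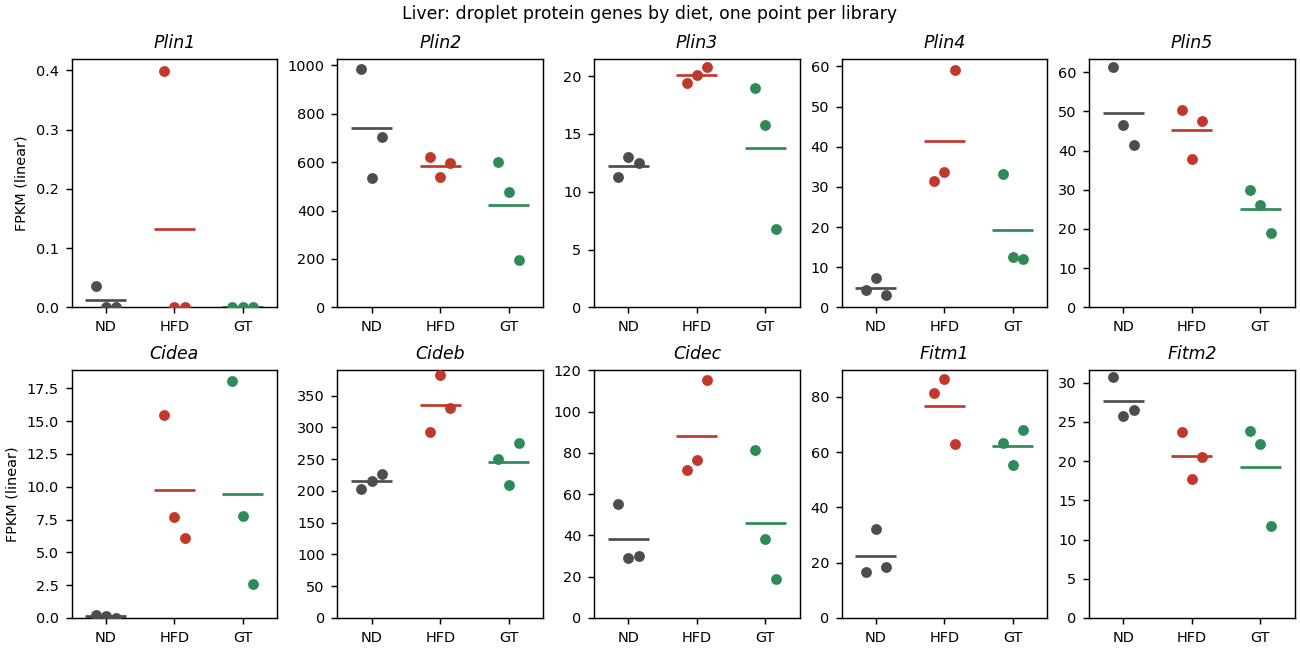
FPKM of the 10 members in liver (linear axes from 0, 1 panel per gene), 1 point per library and bars for the mean of each diet. Plin4, Cidea and Fitm1 are higher in every HFD library than in any ND library, and Plin5 is lower in every GT library than in any ND or HFD library.

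In liver the high-fat diet raised another set of members. Of 9 tested, 4 passed (limma, adjusted p under 0.05), all upward, where 18.6% of genes passed and 11.9% did so upward. They were Plin4, Cidea, Cideb and Fitm1, and of Cidea only HFD and GT libraries reached 1 FPKM. Between HFD and ND 7 of 9 had no overlap, which held for 44.9% of genes, and of these 7 Fitm2 alone lay lower. The members' median change was 0.67, against -0.02 over all 10670 genes tested. All genes split into 1268 higher and 712 lower as deposited and into 613 and 850 at equal FPKM totals, where the median of all genes moved to -0.20.

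Plin4 stood at 4.36, 7.42 and 2.96 FPKM in ND liver and at 31.5, 33.8 and 59.0 in HFD liver. The lowest HFD library was several times the highest ND library, and the change was 2.86 ± 0.39 (adjusted p 0.00202). Cidea was at 0.260, 0.113 and 0 FPKM in ND, near the limit of detection, and at 15.4, 7.66 and 6.11 in HFD. It was higher by 3.17 ± 0.51 (adjusted p 0.00531), and since 1 was added to each value the change in level is understated. Cidea was tested in liver only because HFD and GT libraries reached 1 FPKM, so its p lends no weight to a rise over ND. Fitm1 was at 16.6, 32.3 and 18.4 FPKM in ND and at 81.4, 86.4 and 62.8 in HFD, without overlap, and rose by 1.78 ± 0.24 (adjusted p 0.00176).

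Muscle transcripts were present in some liver libraries, and Fitm1 is known from muscle, so both are set side by side. The 7 muscle markers in the table summed to 115 FPKM in HFD 2, 49.5 in GT 3 and 23.9 in HFD 3 and to at most 3.44 in the other liver libraries. In HFD 1, where the sum was 0.453 FPKM, Fitm1 stood at 81.4. Without HFD 2 and GT 3 the calls of Plin4, Cidea, Cideb and Fitm1 with HFD were kept. Adipocyte markers in liver summed to 17.8 to 28.8 FPKM in ND, 108 to 249 in HFD and 152 to 244 in GT. Cfd made up most of the sum in HFD 1, HFD 2, HFD 3 and the GT libraries, and Fabp4, Adrb3 and Lipe most of it in ND. Fabp4 stood at 9.73, 9.89 and 6.53 FPKM in ND liver, at 35.7, 30.2 and 36.7 in HFD and at 10.9, 5.49 and 10.1 in GT, and passed upward with HFD (1.87 ± 0.24, adjusted p 0.00146) and downward in GT against HFD (-1.89 ± 0.24, 0.00527). Adipoq was at most at 1.40 and Lep at 0.723, both in HFD 1. The part of other cells in the members' changes in liver was not tested. Plin1 was listed at 0.0356 FPKM in ND 1, at 0.399 in HFD 1 and at 0 in the other 7 liver libraries.

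Cideb, the most abundant CIDE gene of liver, stood at 203, 216 and 227 FPKM in ND and at 293, 382 and 331 in HFD. The groups did not overlap, and it rose by 0.63 ± 0.16 (adjusted p 0.0240). That call was lost without ND 1, ND 3, HFD 2 or HFD 3 (adjusted p 0.0579 to 0.114) and at equal FPKM totals (0.0858). Cidec was at 55.0, 28.8 and 30.2 FPKM in ND and at 71.8, 76.7 and 115 in HFD, also without overlap. Its change of 1.22 ± 0.44 did not pass (adjusted p 0.0737), but did so without GT 1 or GT 3 (0.0301 and 0.0250).

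Plin2 stayed the highest member in liver on both diets, with 987, 535 and 705 FPKM in ND and 619.6, 541 and 597 in HFD. The HFD values lay within the ND range, and the change was -0.30 ± 0.36 (adjusted p 0.590). Plin5 overlapped as well, with 61.2, 46.5 and 41.4 FPKM in ND, 50.3, 37.8 and 47.6 in HFD and a change of -0.12 ± 0.21 (adjusted p 0.706). Plin3 was higher in every HFD library (19.4, 20.1 and 20.8 FPKM) than in ND (11.2, 13.0 and 12.5). Its change of 0.67 ± 0.28 did not pass (adjusted p 0.118), and passed without GT 3 (0.00318) and without both HFD 2 and GT 3 (0.0123). Fitm2 was at 30.7, 25.8 and 26.6 FPKM in ND and 23.7, 17.7 and 20.5 in HFD, with a change of -0.41 ± 0.24 (adjusted p 0.240) that passed without GT 3 (0.0367).

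Between extract and high-fat diet in liver, 1 of 9 members passed, Plin5, downward, where 5.36% of genes passed and 4.22% did so downward. Plin5 stood at 30.0, 26.04 and 19.1 FPKM in GT, below every ND and HFD library. It fell by 0.84 on the log2 scale, with an SE of 0.21 (adjusted p 0.0452). The call is a close one. It was lost when any library but GT 3 was left out (adjusted p 0.0542 to 0.115), without HFD 2 and GT 3 together (0.0591), with no filter (0.0788) and at equal FPKM totals (0.184). All genes split into 122 higher and 450 lower, and at equal FPKM totals into 68 and 140.

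Plin3 (19.0, 15.7 and 6.74 FPKM) and Cideb (250.01, 209.9 and 276 FPKM) also lay below every HFD library, so that 3 of 9 members did, as 18.2% of genes did. Their changes of -0.62 ± 0.28 and -0.45 ± 0.16 did not pass (adjusted p 0.217 and 0.130), and that of Cideb passed without GT 3 (0.0476). Plin4 stood at 33.3, 12.6 and 12.1 FPKM in GT and Cidec at 81.2, 38.4 and 19.0. In both GT 1 was the highest extract library and reached the HFD range. Their changes were -1.15 ± 0.39 and -1.12 ± 0.44 (adjusted p 0.108 and 0.153), and without GT 1 both passed (0.0367 and 0.0432).

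Cidea followed the same order among extract libraries, with 18.02, 7.77 and 2.58 FPKM, and spanned more than the HFD range. Its change was -0.25 ± 0.51 (adjusted p 0.810). Fitm1 stayed at 63.4, 55.4 and 67.9 FPKM, overlapping HFD, with -0.29 ± 0.24 (adjusted p 0.491). Plin2 was at 601, 476 and 195 FPKM, where GT 3 was the lowest of all 18 libraries apart from adipose ND 1, and changed by -0.61 ± 0.36 (adjusted p 0.337). Fitm2 was at 23.8, 22.2 and 11.7 FPKM, with -0.15 ± 0.24 (adjusted p 0.753).

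Against the normal diet, 4 of 9 members passed in extract-fed liver, where 2.6% of genes did. Fitm1 was higher by 1.49 ± 0.24 (adjusted p 0.0109), Cidea by 2.91 ± 0.51 (0.0199) and Plin4 by 1.70 ± 0.39 (0.0474), and Plin5 was lower, with -0.97 ± 0.21 (0.0395). These 4 and Fitm2 had no overlap between GT and ND, 5 of 9 members, as had 21.6% of genes. Fitm2 lay lower and did not pass, with -0.56 ± 0.24 (adjusted p 0.270). The p of Cidea lends no weight here either, since its ND liver libraries were all below 1 FPKM. The call of Plin4 was lost when any one library was left out (adjusted p 0.0519 to 0.179), that of Plin5 for every library but GT 3 (0.0530 to 0.172), that of Cidea without any ND library or GT 2 (0.0523 to 0.0920) and that of Fitm1 without ND 1 or ND 3 (0.0595 and 0.0539).

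**Figure D4:**
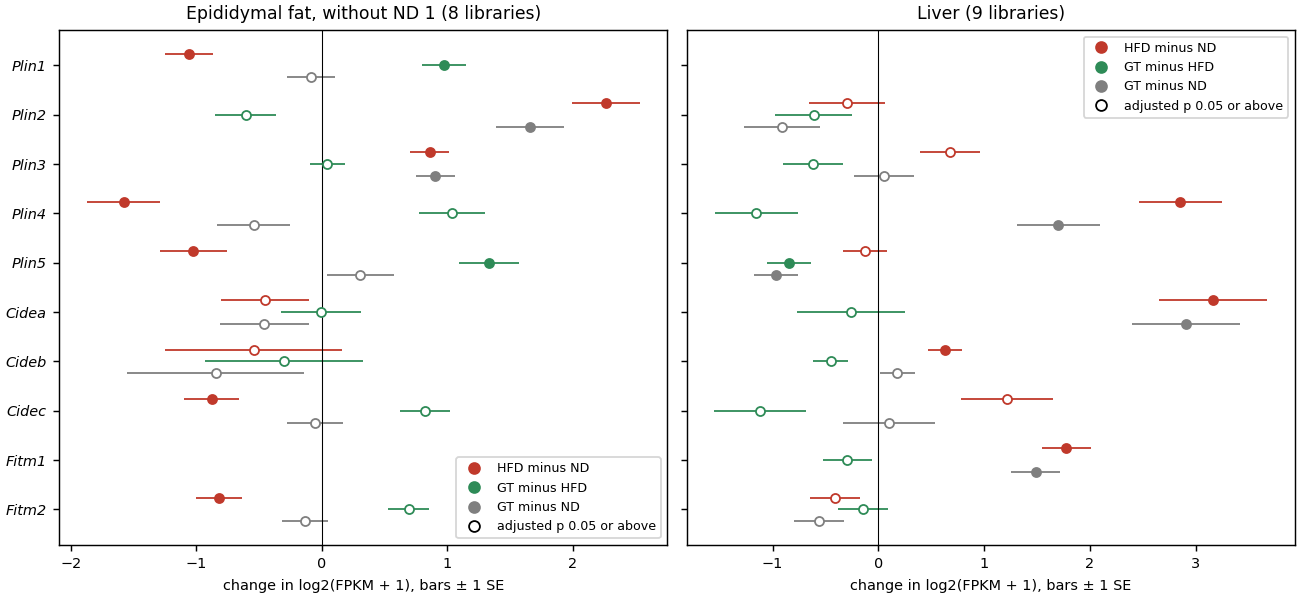
Change in log2(FPKM + 1) with bars of 1 SE for each tested member, for HFD against ND, GT against HFD and GT against ND, in fat without ND 1 (left) and in liver (right), with filled points where adjusted p was under 0.05. Plin2 rises in fat (2.26) and Plin4, Cidea and Fitm1 rise in liver (2.86, 3.17 and 1.78), while Plin5 differs with the extract upward in fat (1.33) and downward in liver (-0.84).

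Whether the tissues differed in their response was tested as a difference of differences, fat minus liver. For HFD against ND, 2 of 10 members passed with all 18 libraries, where 9.97% of genes did, and 6 of 10 without adipose ND 1, where 24.2% did. Plin2 responded more in fat, by 3.26 ± 0.73 with all libraries (limma, adjusted p 0.0122) and by 2.56 ± 0.52 without ND 1 (0.00250). Cidea responded more in liver, with -4.20 ± 0.81 (0.00476) and -3.62 ± 0.74 (0.00330). Without ND 1 Plin4 differed by -4.44 ± 0.58 (adjusted p 0.000141), with a fall in fat and a rise in liver, and Cidec by -2.10 ± 0.59 (0.0190). Fitm1, close to 0 in fat, differed by -1.93 ± 0.32 (0.000622), and Plin1, close to 0 in liver, by -1.20 ± 0.24 (0.00211). With 0.1 added in place of 1 neither of these 2 passed (0.0594 and 0.0867), and at equal FPKM totals Cidec did not (0.0669). Cideb did not pass (-1.17 ± 0.71, 0.254), nor did Plin5 (-0.90 ± 0.35, 0.0726). Without adipose ND 2 as well, their differences were -2.59 and -1.30, with ND 3 as the only adipose ND library left.

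For GT against HFD, 0 of 10 members passed with all 18 libraries in limma, where 0.0208% of genes did and Plin5 was the 1 member with an unadjusted p under 0.05. Without adipose ND 1, 3 of 10 passed, where 4.51% of genes did. Plin5 differed by 2.17 ± 0.33 (adjusted p 0.00464), higher with the extract in fat and lower in liver. Plin4 differed by 2.19 ± 0.55 (0.0381), a call lost for 10 of the 17 libraries left out (highest adjusted p 0.10003), and Plin1 by 1.13 ± 0.22 (0.0149), which did not pass with 0.1 added (0.131). Cidec, with 1.94 ± 0.56, did not pass (0.0636), but did so without adipose ND 3 (0.0491) or liver GT 1 (0.0108).

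**Figure D5:**
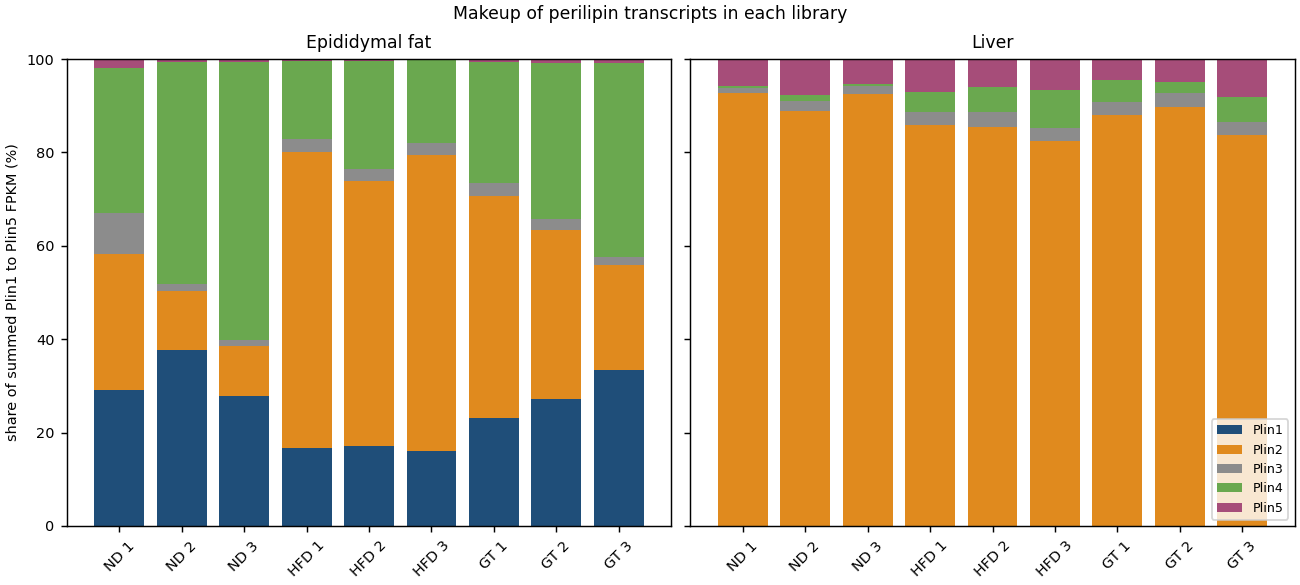
Share of each perilipin in the summed FPKM of Plin1 to Plin5 (stacked bars, percent), for each of the 9 adipose libraries (left) and 9 liver libraries (right). In HFD fat Plin2 makes up 56.6% to 63.4%, against 10.8% and 12.8% in ND 3 and ND 2, and in liver it makes up 82.4% or more in every library.

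The makeup of the perilipin pool can be read from shares of summed FPKM. In fat without ND 1, Plin2 made up 11.8% ± 1.42 (SD, n = 2) in ND, 61.1% ± 3.85 (n = 3) in HFD and 35.4% ± 12.6 (n = 3) in GT. Plin4 made up 53.5% ± 8.46, 19.3% ± 3.49 and 33.6% ± 7.73, and Plin1 32.7% ± 6.92, 16.7% ± 0.502 and 27.9% ± 5.22. The summed perilipin level itself differed less, with means of 2177, 1998 and 2369 FPKM. Over the 3 diets the share of Plin1 gave p = 0.0179 in an exact permutation test of 560 arrangements, and 0.0714 after Benjamini-Hochberg adjustment over the 4 shares tested, so it did not pass. In liver Plin2 made up 91.4% ± 2.18, 84.6% ± 1.92 and 87.1% ± 3.10 (n = 3 each; exact permutation p = 0.0536, adjusted 0.107).

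Among CIDE transcripts in fat, Cidec made up 99.6% or more in every library but ND 1 (91.5%), and its share did not pass over the diets (exact permutation p = 0.221, adjusted 0.295). In liver Cideb led with 85.0% ± 5.53, 77.4% ± 4.40 and 82.1% ± 10.6 in ND, HFD and GT. The share of Cidea and Cidec together was 15.0%, 22.6% and 17.9% (exact permutation p = 0.475, adjusted 0.475). The smallest p these tests allow is 0.00357.

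The members also fell into sets by how they varied over the 8 adipose libraries without ND 1, given as Pearson's r of log2(FPKM + 1) with no test, since the libraries share 3 diets. Cidec and Plin1 had r = 0.99, Plin1 and Fitm2 0.98, Cidec and Plin5 0.94 and Plin1 and Plin4 0.92. Plin2 and Plin3 had r = 0.94 with each other, and Plin2 had -0.74 with Plin1 and -0.84 with Plin4. Among the 5 genes most like Plin2 in fat, of all genes tested, were Unc93b1, Cotl1 and Slc11a1, each with r of 0.999. Plin1 was the gene most like Cidec, and Stc2, Trarg1 and Fam89a were also among its 5 (r = 0.98 each). For Plin5 they were Prkd2, Ephb4, Fstl3, Adcy5 and Plekhg6 (r = 0.98 to 0.99).

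Over the 9 liver libraries Plin2 and Plin5 had r = 0.85. The genes most like Plin2 in liver were Nek2, Adck1, Btrc, Fgb and Clptm1 (r = 0.96 to 0.98), and those most like Plin5 were Leprotl1, Ywhaz, St5, Elovl5 and Tmem243 (0.95 to 0.99). Those most like Cidec were Fam129b, Phax, Mpdu1, Tprgl and Sytl4 (0.94 to 0.98). For each of these members, no gene was among the 5 most like it in both tissues.

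Other genes of the droplet, 25 in a list of lipases, lipid synthesis enzymes and droplet assembly proteins, gave the surroundings. In fat without ND 1, 4 of 23 tested rose and 4 fell with HFD, with a median of -0.11. The share of all genes was 17.8% higher and 9.62% lower. Those that fell were the lipases Lipe (-0.88 ± 0.16, adjusted p 0.00571) and Pnpla2 (-0.99 ± 0.28, 0.0315), the activator Abhd5 (-0.51 ± 0.13, 0.0226) and the Pnpla2 inhibitor G0s2 (-0.79 ± 0.17, 0.0104). The lipase Mgll did not pass, with -0.12 ± 0.16 (0.622). Rab7, Hilpda, Pcyt1a and Aup1 rose, by 0.72, 0.80, 0.62 and 0.51. With the extract against HFD 1 of 23 passed, where 1.7% of genes did. It was Lipe, which rose by 0.92 ± 0.14 (adjusted p 0.0413). Against ND, 3 of 23 passed without ND 1, where 10.7% of genes did, and these (Hilpda, Dgat2 and Rab7) were higher in GT. With all 9 adipose libraries 0 of 23 passed in each of the 3 diet comparisons. There 5.65% of genes passed for HFD against ND, 0% for GT against HFD and 0.639% for GT against ND. Cav1 was listed at 0 in all 18 libraries, which may be a failed estimate, and was not tested.

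In liver Bscl2, which encodes seipin (0.62 ± 0.14, adjusted p 0.0141) and G0s2 (0.93 ± 0.28, 0.0397) rose with HFD and Vps13c fell (-0.87 ± 0.18, 0.0111), 3 of 23 in all, where 18.6% of genes passed. G0s2 thus fell in fat without ND 1 and rose in liver on the same diet. With all 9 adipose libraries G0s2 did not pass in fat, and with 18 libraries its tissue difference did not pass. Between GT and HFD in liver 2 of 23 passed, where 5.36% of genes did. Vps13c was higher and Tmem159, which encodes a partner of seipin, was lower. Tmem159 was at 1.23, 1.09 and 1.30 FPKM in HFD liver and at 0.276, 0.604 and 0.334 in GT liver. It was tested only because ND and HFD libraries reached 1 FPKM, so its p lends no weight to a fall. Among 9 transcription regulators of lipid storage, 3 rose in HFD liver, where 11.9% of genes did: Pparg by 1.21 ± 0.20 (adjusted p 0.00531), Srebf1 by 0.88 ± 0.22 (0.0227) and Cebpa by 0.55 ± 0.16 (0.0376). Pparg stood at 5.30, 6.96 and 5.79 FPKM in ND and at 13.3, 15.3 and 17.1 in HFD liver. In extract-fed liver Srebf1 and Pparg were higher than in ND, by 1.41 ± 0.22 (0.0109) and 0.92 ± 0.20 (0.0421). In fat 0 of 8 regulators passed with HFD without ND 1 in limma, where 27.4% of genes did, and 2 (Ppara and Rxra) had an unadjusted p under 0.05.

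Some members share their locus with another gene on the opposite strand in GENCODE M21, and the sources used here do not say whether strand was used in counting, so reads of such pairs cannot be told apart. The pairs are Plin4 with Hdgfl2, Cideb with Nop9, Cidea with B430212C06Rik, Fitm2 with 2310001K24Rik and Fitm1 with Gm15932. In fat Nop9 stood at 4.196 FPKM in ND 2 and 9.80 in ND 3, where Cideb was at 0.271 and 8.08. Nop9 was at 10.5 in HFD 1 and 43.2 in ND 1, where Cideb was at 1.48 and 3.34. Testis transcripts were present in ND 1, ND 3 and HFD 1. Hdgfl2 was at 10.2, 11.4 and 8.57 FPKM in ND liver and at 13.0, 15.5 and 12.9 in HFD liver, where Plin4 rose to several times its ND level. B430212C06Rik was at 0.160, 0.135 and 0.110 FPKM in ND liver, at 0.596, 0.498 and 0.524 in HFD liver and at 1.31, 0.821 and 0.388 in GT liver. As with Cidea, every HFD and GT library lay above every ND library, and GT 1 was the highest and GT 3 the lowest extract library. The part of the opposite genes in the members' levels was not tested. Plin4 and Plin5 are neighbours on chromosome 17 with no protein-coding gene between them, and in liver they went separate ways, with Plin4 higher and Plin5 overlapping on HFD.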

How the data were processed

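FPKM per gene for 18 libraries was used as deposited. Polyadenylated RNA had been prepared with TRIZOL and the Illumina TruSeq kit, per the labels' protocols, and CASAVA 1.8.2, STAR 2.4.0 and Cufflinks 2.1.1 are named in the submitters' processing notes. As for the genome build, it was not given in the sources used here. Of 23474 identifiers, 22671 matched a symbol in GENCODE M21. Groups were taken from the labels, and columns without a sample numbered 0.

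FPKM is not a count, so log2(FPKM + 1) was tested in limma 3.58.1 (R 4.3.3) with trend and robust options, over genes at 1 FPKM or more in at least 3 libraries of the fit: 13762 in fat, 12859 in fat without ND 1 and 10670 in liver, 14442 in both tissues together and 13626 without ND 1. Diets of a tissue shared 1 fit. P-values were adjusted by Benjamini-Hochberg over all genes of a comparison. Shares were tested by exact two-sided permutation over samples. The fit was tested on simulated data. The members, the lists and the rule for naming likeness (the 5 genes of highest Pearson's r) were chosen with earlier results of these data known. Some of the genes that rule gives are not reported here.

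Read numbers were not used here, so depth is unknown beyond relative values. Steps between values under 0.1 FPKM placed adipose ND 1 at -0.63 log2 units from adipose ND 2 and the others between -0.41 and 0.43, but only 2.28% to 10.5% of such values lay on a step. Alternatives were 0.1 added in place of 1, no filter, equal FPKM totals, the replicate number as a block and each library left out. Leaving out the 3 adipose libraries with testis RNA (ND 1, ND 3 and HFD 1) or the 2 liver libraries with most muscle RNA (HFD 2 and GT 3) was chosen after seeing the data. Other software was pandas 2.3.3, NumPy 2.4.6 and matplotlib 3.10.9 under Python 3.11.15. Marker lists were adipocyte, hepatocyte, macrophage, brown adipocyte, skeletal muscle, testis and epididymis, given as summed FPKM.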

Additional observations from a re-analysis of the deposited data

Results flagged for a closer look

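These results are listed because the response to a diet differed between fat and liver in a test of the difference itself (limma, fat minus liver, log2 scale). For HFD against ND with all 18 libraries, Plin2 differed by 3.26 and Cidea by -4.20. Without adipose ND 1 the differences were 2.56 for Plin2, -3.62 for Cidea, -4.44 for Plin4, -2.10 for Cidec, -1.93 for Fitm1 and -1.20 for Plin1. Plin4 moved in opposite directions, falling in fat and rising in liver, past the threshold in each tissue. For GT against HFD without adipose ND 1, Plin5 differed by 2.17, Plin4 by 2.19 and Plin1 by 1.13. Plin5 passed in each tissue, upward in fat and downward in liver. Both of these calls were lost at equal FPKM totals and without most of the single libraries. Plin1 in liver and Fitm1 in fat were near 0 FPKM, so their differences carry the change of 1 tissue.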

How the results depend on the processing

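With adipose ND 1, the changes of Plin1, Cidec and Fitm2 with HFD were 0.12, 0.46 and 0.23 and not past the threshold, and without it they were -1.06, -0.88 and -0.82 and passed. Over all single libraries left out, the 3 changes reached up to 0.72, 1.17 and 0.79, the highest without ND 3. Of 1450 member values past the threshold neither as reported nor under the alternative, 86 had the other sign there. Replicate numbers were not taken to pair the samples, since same-numbered libraries did not all correlate above 0.1: r ran from -0.07 to 0.64 (median 0.17) within fat, where other pairs had a median of -0.13, and from -0.30 to 0.42 within liver. Libraries correlated best with their own number in 11 of 18 choices in fat and 7 of 18 in liver, a hint from the data and not the design. With the replicate number as a block, the called genes were 337 (0 members) for HFD against ND and 3 for GT against ND in fat with all libraries; without ND 1 they were 2279 (5 members), 5 (0 members) for GT against HFD and 157 (0 members) for GT against ND. In liver the block gave 306 for GT against HFD and 141 for GT against ND, and it gave 1 for the tissue difference in GT against HFD with 18 libraries. Under the block the adjusted p of called members passed 0.05 for Plin2 in fat with all libraries (0.0784) and, in fat without ND 1, for Plin5 (0.0507) and Cidec (0.0504) with HFD, for Plin1 and Plin5 in GT against HFD (0.117 both) and for Plin2 and Plin3 in GT against ND (0.0557 and 0.0598). The same held for Plin4 in liver GT against ND (0.105) and in the tissue difference for GT against HFD (0.0671). The cause of these shifts was not tested.

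With no filter, 22 genes were called in fat for GT against ND; without ND 1 they were 3 (0 members) for GT against HFD and 844 for GT against ND, and in liver 262 (0 members) and 143 (2 members). At equal FPKM totals these became 89 (0 members) for GT against HFD in fat without ND 1, 208 (0 members) and 141 (2 members) in liver, and 286 for the tissue difference in GT against HFD without ND 1. With 0.1 added the fat and tissue-difference counts for GT against HFD without ND 1 were 121 and 398. Leaving out the libraries with testis RNA left ND 2 as the only ND library in fat, so the comparisons of that fit with ND rest on it. Without the 2 liver libraries with most muscle RNA, 242 genes (0 members) passed for GT against HFD and 438 for GT against ND. Equal totals moved the median of all genes from 0.13 to 0.41 for HFD against ND in fat with all libraries and from 0.03 to 0.26 in the tissue difference without ND 1, whose split of higher and lower genes went from 1943 and 1349 to 2463 and 778. The split went from 964 and 406 to 995 and 213 for GT against ND in fat without ND 1.

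Leaving out 1 library at a time gave, in fat with all libraries, 59 to 3527 genes (0 to 7 members) for HFD against ND, 0 to 218 (0 to 2) for GT against HFD and 0 to 2544 (0 to 3) for GT against ND. Without ND 1 the ranges were 2048 to 3953 (5 to 8), 0 to 866 (0 to 5) and 145 to 2632 (0 to 3). In liver they were 460 to 3367 (3 to 7), 43 to 1240 (0 to 2) and 49 to 428 (0 to 3). Tissue differences gave 852 to 5178 (2 to 6) and 1 to 615 (0 to 3) with 18 libraries for the first 2 contrasts, and 143 to 1092 (2 to 4) for GT against HFD without ND 1. The HFD minus ND difference in share ran from -8.05 to -5.69 points for Plin2 in liver, from 5.54 to 10.9 for Cidea with Cidec in liver, from -20.9 to -11.1 for Plin1 in fat and from -0.116 to 0.148 for Cidec in fat. Where an arm was left with 1 library, that library was assumed to vary like the other groups.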

Other observations

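Lep, the hormone leptin of fat cells, stood at 323 and 317 FPKM in ND 2 and ND 3, at 899, 1196 and 1186 in HFD fat and at 1143, 1117 and 1366 in GT fat. Every HFD and GT library lay above both ND libraries, and without ND 1 Lep rose by 1.76 ± 0.18 with HFD (limma, adjusted p 0.00118). Against HFD alone, Lep in GT changed by 0.15 ± 0.16 (adjusted p 0.609). With all 9 adipose libraries Lep did not pass for HFD against ND in limma, with an unadjusted p under 0.05. Cfd, the serum protease adipsin, fell in fat from 4074 and 3626 FPKM to 337, 349 and 251 and stood at 799.7, 1204 and 1668 with the extract. In liver Cfd was at 1.78, 3.11 and 0.720 FPKM in ND, at 193, 162 and 54.7 in HFD and at 191, 131 and 202 in GT, without overlap between ND and either high-fat group.

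Hsd17b13, a droplet enzyme of hepatocytes, was at most at 0.117 FPKM in fat and lay between 248 and 268 in ND liver, 233 and 371 in HFD liver and 93.7 and 240.1 in GT liver. Liver GT 3 held the lowest value of Hsd17b13, Plin2, Plin3, Plin5, Cidec and Fitm2 among the 9 liver libraries.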
